A study of Homo sapiens with 22 samples.

Results

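The genes described here encode the proteins of the cytosolic ribosome. They were taken by symbol from the RefSeq table of GRCh38.p14: protein-coding genes on chromosomes 1 to 22 named RPL or RPS with a number and at most one of the letters A, X or L, together with RPLP0, RPLP1, RPLP2 and RPSA. The rule found 77 genes among 19122 protein-coding genes on these chromosomes, and the other 19045 were the comparison. Of the 77, 43 encode proteins of the large subunit, 30 proteins of the small subunit, and 4 are paralogues whose symbols end in L (RPL3L, RPL10L, RPL39L and RPS27L). A gene was said to have a peak when at least 1 peak summit lay inside the gene or within 1 kb of it.

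The data were chromatin immunoprecipitation sequencing (ChIP-seq) peak lists from hTERT RPE-1, a human line of retinal pigment epithelium kept dividing by telomerase. Wild-type cells gave the CTCF and the WAPL list. RAD21, STAG1, STAG2, PDS5A and an HA epitope were precipitated from clones whose NIPBL carries a degron, the FKBP12(F36V) domain, which the small molecule dTAGV-1 directs to degradation. Clone A2 has the genotype mCherry-P2A-FKBP12(F36V)-NIPBL and clone D7 the genotype mGreenLantern-P2A-FKBP12(F36V)-NIPBL, so each genotype is represented by 1 clone. Both clones gave 3 RAD21 lists, from cells in the solvent DMSO for 24 h, in dTAGV-1 for 4 h and in dTAGV-1 for 24 h. STAG1, STAG2 and PDS5A came from clone D7, PDS5A after 24 h in DMSO, and the labels name no treatment for STAG1, STAG2, HA, CTCF or WAPL. HA came from clone A2, and its peak names call it HA-NIPBL. Chromatin of NIH/3T3, a mouse line, was added at about 10% to the RAD21 and PDS5A libraries but was not used here, and the cells were not synchronised. Each of the 12 lists came from 1 library, so differences have no replicate check, and p-values are not given. The intervals are 95% Wilson intervals for a share and 95% Newcombe intervals for a difference of shares, and they cover counting error only. Peak lists hold no expression values, so neither the identity of the cells nor the transcription of the genes could be checked in them.

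Cohesin is a ring-shaped complex that folds DNA into loops. RAD21 closes the ring, STAG1 and STAG2 are alternative accessory subunits, NIPBL drives loop extrusion, and CTCF bound to DNA halts the complex. PDS5A binds the ring and takes part in its pausing and release, and WAPL opens it. Ribosomal protein genes are known as short genes that are strongly transcribed in growing cells. Most of their messages begin with a C followed by a run of pyrimidines, the terminal oligopyrimidine (TOP) motif, through which the mTOR pathway controls their translation, and many of their introns encode small nucleolar RNAs (snoRNAs).

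The 77 genes had a median length of 5011 bp, from 772 to 27723 bp, against 24694 bp for the other genes. Because a longer gene offers more room for a summit, the 2077 other genes with lengths between the lower and upper quartile of the ribosomal protein genes, 3280 to 7253 bp, were used as a second comparison and are called genes of like length. At least 1 snoRNA gene lay inside 27 of the 77 (35.1%), against 477 of the 19045 other genes. The window around 34 of the 77 also met another protein-coding gene, a share of 44.2% against 39.5%, and a peak there cannot be assigned to either gene alone. The rule leaves out genes that bear other names, such as FAU and RACK1, and RPL10, RPL36A, RPL39 and RPS4X on the X chromosome.

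A start site was listed in the RefSeq promoter table for 60 of the 77 genes. The first 5 transcribed bases were a C and 4 pyrimidines, here called a TOP start, in 43 of these 60 (71.7%), against 897 of 15040 other genes (5.96%). The following stretches run from 60 bases before the start to 19 bases past it, 80 bases each. They are shown because these genes carry the RAD21 and PDS5A results below, and the pyrimidines that begin at the listed start are in capitals. RPL31 (chr2:101002229-101002308, plus strand), RPS24 (chr10:78033803-78033882, plus strand), RPL21 (chr13:27251498-27251577, plus strand), RPS6 (chr9:19380217-19380296, minus strand) and RPS19 (chr19:41860195-41860274, plus strand) have a TOP start. RPS26 (chr12:56041858-56041937, plus strand), RPL10A (chr6:35468341-35468420, plus strand) and RPS28 (chr19:8321436-8321515, plus strand) have none at the listed start.
RPL31: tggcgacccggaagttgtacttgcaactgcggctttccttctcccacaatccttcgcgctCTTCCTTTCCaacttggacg
RPS24: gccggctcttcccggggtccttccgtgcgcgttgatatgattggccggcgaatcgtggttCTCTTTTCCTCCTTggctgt
RPL21: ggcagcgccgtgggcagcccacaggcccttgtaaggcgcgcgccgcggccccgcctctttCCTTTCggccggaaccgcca
RPS6: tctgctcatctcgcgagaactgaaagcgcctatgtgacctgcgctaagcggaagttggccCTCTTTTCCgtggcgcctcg
RPS19: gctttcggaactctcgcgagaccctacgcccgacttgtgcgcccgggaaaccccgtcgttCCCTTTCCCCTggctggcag
RPS26: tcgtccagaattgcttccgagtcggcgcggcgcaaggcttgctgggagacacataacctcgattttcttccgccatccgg
RPL10A: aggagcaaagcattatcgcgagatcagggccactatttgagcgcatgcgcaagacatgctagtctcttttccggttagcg
RPS28: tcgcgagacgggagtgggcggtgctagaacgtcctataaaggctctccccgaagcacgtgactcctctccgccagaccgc

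The 12 lists differed in length and depth. CTCF had 59138 peaks, the RAD21 lists 25763 to 39713, STAG1, STAG2 and PDS5A 22518 to 28887, WAPL 2667 and HA 230. The background pileup of a list, the mean number of fragments over a base, follows from the deposited fold and p and stands in for depth. It was 13.4 for CTCF and 1.77 to 4.05 for the other lists except HA, for which the pileups could not be recovered.

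PDS5A was the protein found at most ribosomal protein genes. It had a peak at 57 of 77 (74.0%, 63.3 to 82.5), against 56.9% of all 19122 genes and 42.7% of genes of like length. The share exceeded that of the other genes by 17.2 points (6.36 to 25.7) and that of genes of like length by 31.4 points (20.4 to 40.1). Counting only summits within 1 kb of a start, or of either gene end where no start is listed, PDS5A was at 56 genes (72.7%), and 36.4% of all genes passed that count. The difference from other genes was 2.24 points (−8.58 to 13.3) when only the gene body was searched and 1.47 points (−2.23 to 9.30) with the strongest 2000 peaks, and both intervals include 0. CTCF had a peak at 45 of the 77 genes (58.4%), with 66.8% of all genes and 45.5% of genes of like length. Within 1 kb of a start CTCF was at 37 genes (48.1%), where 35.4% of all genes had one.

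RAD21 in DMSO was at 31 genes (40.3%) in clone A2, where 54.9% of all genes had a peak, and at 28 genes (36.4%) in clone D7, where 55.4% had one. Against genes of like length the A2 share differed by 7.09 points (−3.35 to 18.4) and the D7 share by 1.07 points (−9.00 to 12.4), and both intervals include 0. STAG1 was at 24 genes (31.2%), with 48.8% of all genes, and STAG2 at 7 (9.09%), with 32.1%. Genes of like length had STAG1 at 29.8% and STAG2 at 10.3%. The differences from them were 1.41 points (−8.04 to 12.6) and −1.16 points (−5.98 to 7.43), and both intervals include 0. WAPL was at 1 gene, with 5.98% of all genes, and HA at none of the 77, with 0.481%. A count of 0 of 77 has an upper limit of 4.75%, so the HA list is too short to separate ribosomal protein genes from the rest.

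**Figure D1:**
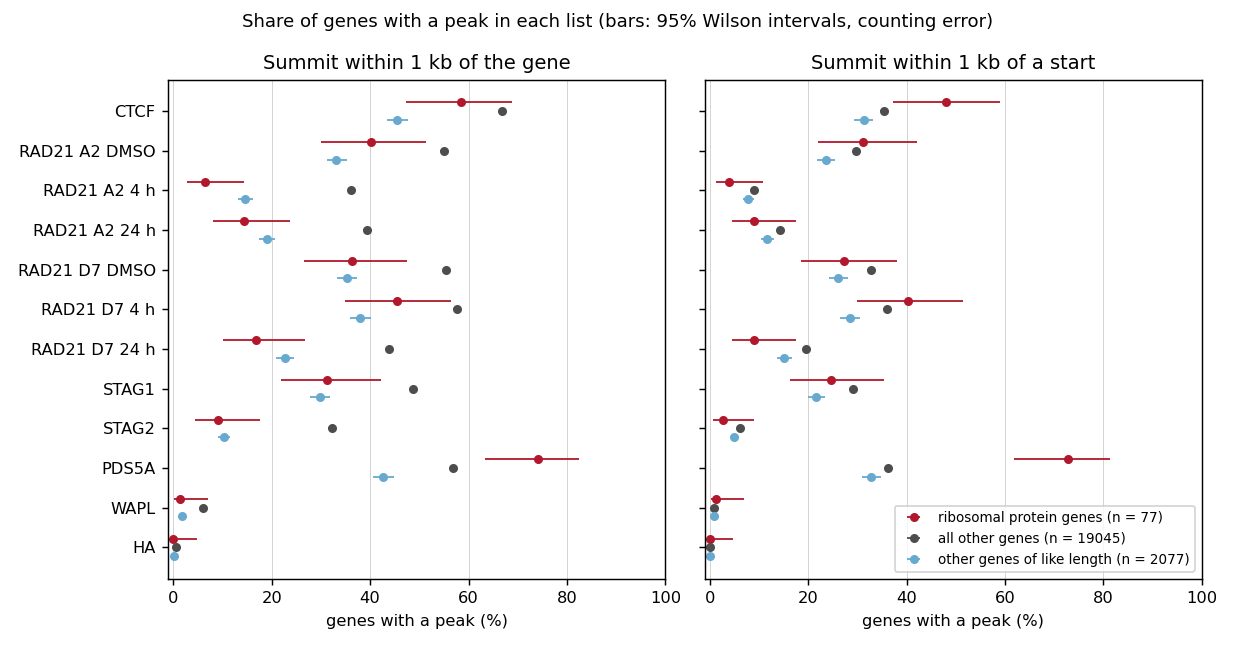
Share of genes with a peak in each of the 12 lists (x axis, percent), with the summit within 1 kb of the gene on the left and within 1 kb of a start on the right; points are the 77 ribosomal protein genes, the 19045 other genes and the 2077 genes of like length, and bars are 95% Wilson intervals. PDS5A is the list in which the ribosomal protein genes stand above both comparisons in both panels, at 74.0% and 72.7%.

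No peak in any list was found at 11 of the 77 genes (14.3%), where 22.4% of all genes and 39.2% of genes of like length had none. Among them were RPL14, RPL19, RPL24, RPL34, RPL35A, RPL37, RPL3L, RPS10, RPS23 and RPS27. RPL3L is a paralogue known from striated muscle.

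The strongest RAD21 peaks at ribosomal protein genes lay at CTCF peaks. Strength is given as the authors' fold enrichment of the summit over local background and as its percentile within the same list, and folds of different lists are not compared. Among the leading genes in clone D7 in DMSO, RPS24 had a fold of 43.4 (percentile 90.2), RPL10A 42.0 (89.6), RPS26 30.6 (82.8), RPL3 16.7 (66.4) and RPL31 15.7 (64.6). In clone A2 in DMSO the leading genes were RPL10A with 38.7 (84.3), RPS24 with 35.5 (81.8), RPS26 with 20.8 (65.1), RPL38 with 19.1 (62.3), RPL7 with 14.5 (53.1) and RPL31 with 14.4 (52.9). RPS24 and RPS26 are small-subunit proteins whose genes are among those mutated in Diamond-Blackfan anaemia, a failure of red cell production. RPL10A sits at the L1 stalk of the large subunit, and RPL3 lies near the centre where peptide bonds form. Each of these 7 genes had a CTCF peak under its RAD21 peak.

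These peaks were not all at the start of the gene. At RPL10A the clone D7 summit lay 147 bp before the start (peak chr6:35467853-35468574), and the CTCF peak beneath it had a fold of 157 (percentile 99.7). At RPS26 it lay 247 bp before the start (chr12:56041314-56042133). At RPS24 it lay 13620 bp past the start, inside the gene (chr10:78046920-78047951), over a CTCF peak of fold 85.2 (percentile 91.6). At RPL31 it lay 10574 bp past the start inside the gene (chr2:101012572-101013269), a position that is also within 1 kb of the neighbouring gene TBC1D8. At RPL3 it lay 3049 bp past the start, inside the gene (chr22:39316245-39316957). The gene table gives no exons, so exon and intron were not told apart.

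Most RAD21 peaks at the 77 genes were weaker than the typical peak at other genes. The 34 peaks in clone A2 in DMSO had a median percentile of 28.3, from 0.706 to 84.3, against 45.2 at other genes, and the highest belonged to RPL10A. The 30 peaks in clone D7 in DMSO had a median percentile of 41.2, from 0.145 to 90.2, against 45.2, and the highest belonged to RPS24. The 60 CTCF peaks at the 77 genes had a median percentile of 58.2 against 48.2 at other genes. Of these, 15 (25.0%) were in the strongest 10% of the CTCF list, against 9.87% at other genes.

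CTCF overlapped RAD21 peaks at ribosomal protein genes about as often as at other genes. In clone A2 in DMSO, 29 of 34 (85.3%) overlapped a CTCF peak, against 84.3%, a difference of 0.963 points (−14.5 to 9.23). In the D7 DMSO list 23 of 30 (76.7%) did, against 80.9%, which differ by −4.26 points (−21.9 to 7.29). The wide intervals leave room for differences of over 14 points in either clone. Conversely, 13 of the 77 genes (16.9%) had CTCF and no RAD21 in any of the 6 lists, where 8.07% of all genes and 9.92% of genes of like length did. RPL11, which with RPL5 binds the p53 regulator MDM2, had CTCF of fold 53.5 (percentile 78.7) 101 bp before its start and no RAD21 peak. RPS15 had CTCF of fold 85.7 (91.8) 114 bp before its start and no RAD21 peak. Both were chosen as examples after their values were seen.

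A core of the CTCF binding sequence, read on both strands as CCA, any 2 bases, AG, any 2 bases and GGC, was present in the window from 250 bases before to 50 bases past the start of 2 of the 60 genes (3.33%) and 508 of 15040 others (3.38%). Both genes, RPLP0 and RPL38, had a CTCF summit in that window, and 13 more of the 60 had a CTCF summit there without this core. Among genes with a CTCF summit in the window, the core was present in 2 of 15 ribosomal protein genes (13.3%). The share was similar at other genes, with 200 of 1942 (10.3%). The stretches are printed with the core in capitals: RPLP0 at chr12:120201325-120201361 on the minus strand, with the core beginning 239 bases before the start, and RPL38 at chr17:74203538-74203577 on the plus strand, with the core beginning 126 bases before it.
RPLP0: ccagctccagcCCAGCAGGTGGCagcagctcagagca
RPL38: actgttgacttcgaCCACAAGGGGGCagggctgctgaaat
RPLP0 forms the base of the ribosomal stalk, and its CTCF peak had a fold of 130 (percentile 98.9) with the summit 231 bp before the start. At RPL38 the CTCF peak over the core had a fold of 127 (percentile 98.6), but the RAD21 peaks in both DMSO lists lay at a second CTCF peak 6898 bp past the start, of fold 101 (95.3).

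With dTAGV-1 fewer ribosomal protein genes had RAD21 in 3 of the 4 treated lists, both of A2 and the 24 h list of D7. In clone A2 it went from 31 in DMSO to 5 after 4 h (6.49%), where 36.1% of all genes had a peak, and 11 after 24 h (14.3%), where 39.2% had one. In clone D7 it went from 28 in DMSO to 35 after 4 h (45.5%, with 57.6% of all genes) and 13 after 24 h (16.9%, with 43.8%). Against genes of like length the A2 share differed by −8.09 points (−12.1 to −0.138) at 4 h and −4.68 points (−11.0 to 4.97) at 24 h. The D7 share differed by 7.47 points (−3.38 to 18.7) at 4 h and −5.84 points (−12.8 to 4.20) at 24 h. Except in A2 at 4 h, these intervals include 0. The ratio of treated to DMSO counts at the ribosomal protein genes was 0.161 in A2 at 4 h, 0.355 in A2 at 24 h and 0.464 in D7 at 24 h. At other genes these ratios were 0.658, 0.715 and 0.791, and at genes of like length 0.440, 0.572 and 0.644. The A2 DMSO library was the shallowest of the RAD21 libraries by background pileup, at 1.87 against 3.16 at 4 h and 2.83 at 24 h. With background pileup scaled to be equal the A2 ratios were 0.161 at 4 h and 0.323 at 24 h, and with RAD21 lists of equal length 0.357 and 0.571. Ratios under these settings were not computed for other genes or genes of like length, so they have no comparison here.

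The rise in clone D7 at 4 h was not kept in stricter lists. With a −log10 q of at least 10 the counts were 22 in DMSO and 13 after 4 h, with the RAD21 lists cut to equal length 17 and 13, and with background pileup scaled to be equal 27 and 24. In each of these the direction was the opposite. With a −log10 q of at least 10 the share of other genes also went down, from 47.4% in DMSO to 43.4% after 4 h. Shares of other genes were not computed with lists of equal length or with equal background pileup. The rise remained for summits within 1 kb of a start, from 21 to 31 genes (27.3% to 40.3%), where other genes went from 32.7% to 36.0%. It also remained at genes whose window meets no other protein-coding gene, from 17 to 21. In the lists as deposited the ratio was 1.25, against 1.04 at other genes and 1.08 at genes of like length. The D7 library at 4 h was the deepest RAD21 library, with a background pileup of 4.05 against 3.00 in DMSO. The 38 RAD21 peaks at ribosomal protein genes in that list had a median percentile of 22.4. The 12 genes with RAD21 in D7 at 4 h and not in D7 DMSO (15.6%, where 7.86% of all genes changed this way) were RPL29, RPL32, RPL35, RPL36, RPL37A, RPL7A, RPS14, RPS18, RPS20, RPS27A, RPS3A and RPS6. Of these, RPL32, RPS14, RPS20 and RPS3A had RAD21 in A2 in DMSO.

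**Figure D2:**
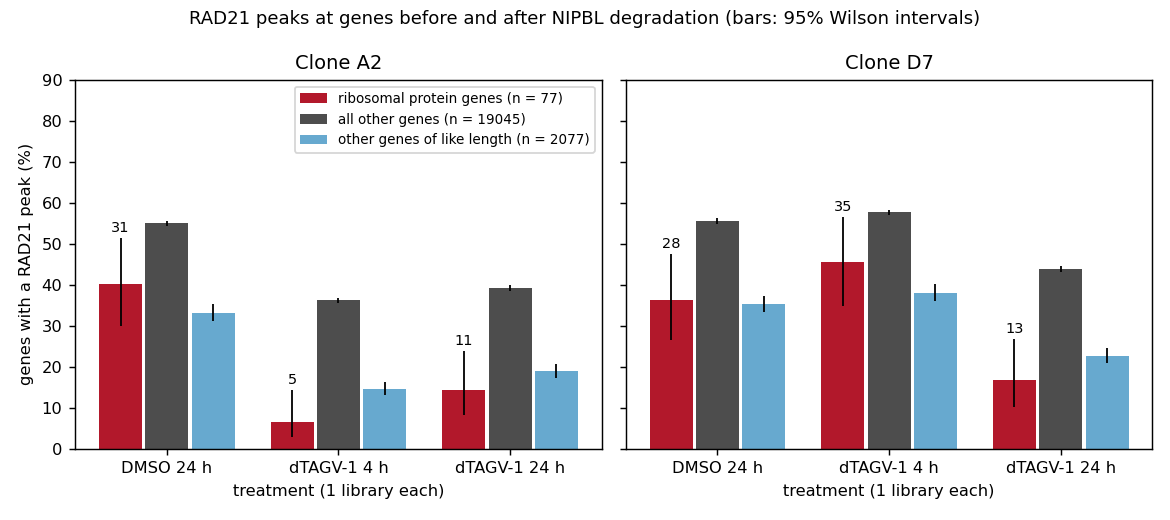
Percent of genes with a RAD21 peak (y axis) in DMSO and after 4 h and 24 h of dTAGV-1, by clone, for ribosomal protein genes, all other genes and genes of like length; bars are 95% Wilson intervals, and the number above each red bar is the count of ribosomal protein genes. In clone A2 the count goes from 31 to 5 to 11, and in clone D7 from 28 to 35 to 13.

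Peak by peak, a DMSO peak was called retained when it overlapped a peak of the treated list of the same clone. At ribosomal protein genes 5 of 34 peaks (14.7%) were retained in A2 at 4 h against 54.3% at other genes, a difference of −39.5 points (−47.8 to −24.1). In A2 at 24 h 12 of 34 (35.3%) were retained against 57.7%, a difference of −22.4 points (−36.2 to −5.62). Both A2 intervals lie below 0. In D7 at 4 h 23 of 30 (76.7%) were retained against 77.3%, a difference of −0.592 points (−18.2 to 11.0). In D7 at 24 h 12 of 30 (40.0%) were retained against 64.3%, a difference of −24.3 points (−39.7 to −6.60).

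Peak strength moved with retention. Each DMSO list was divided by fold into 4 classes of equal size, from class 1, the weakest, to class 4. At other genes in A2 at 4 h, 6.51%, 40.4%, 87.5% and 99.5% of the peaks of classes 1 to 4 were retained. The ribosomal protein genes had 0 of 16, 1 of 10, 2 of 6 and 2 of 2 retained, so most of their peaks were in the weak classes. In D7 at 24 h the other genes had 28.4%, 55.6%, 86.6% and 99.4%, and the ribosomal protein genes 1 of 12, 4 of 7, 4 of 8 and 3 of 3. In class 3 the difference from other genes was −54.1 points (−77.8 to −17.5) in A2 at 4 h and −36.6 points (−65.1 to −8.09) in D7 at 24 h, from 6 and 8 peaks. It was −12.0 points (−48.7 to 11.7) in A2 at 24 h and −18.6 points (−52.7 to −0.739) in D7 at 4 h. In class 2 it was −30.4 (−38.7 to 0.0895) and 8.50 points (−20.3 to 31.7) in A2 at 4 h and 24 h. In D7 the class 2 values were 14.8 (−22.2 to 26.6) and 1.54 points (−30.6 to 28.6). Every class 2 interval includes 0. In class 1 the difference was −6.51 (−7.14 to 12.9) and −19.5 points (−20.5 to −0.159) in A2 at 4 h and 24 h. In D7 the class 1 values were 13.4 (−14.3 to 32.9) and −20.1 points (−27.1 to 6.97). Of the class 1 intervals only that of A2 at 24 h leaves out 0. Position moved with retention as well: of the DMSO peaks at other genes within 1 kb of a start, 28.4% were retained in A2 at 4 h, against 63.4% of those farther away, and at ribosomal protein genes 3 of 25 and 2 of 9 were. Within 1 kb of a start the A2 difference was −16.4 points (−24.3 to 1.60) at 4 h and −16.5 (−30.2 to 3.15) at 24 h. Both of these intervals include 0. In D7 the values there were −7.61 (−28.5 to 6.55) at 4 h and −22.8 points (−38.3 to −1.88) at 24 h. Farther away the A2 difference at 4 h was −41.2 points (−57.1 to −8.68), from 9 peaks. Neither strength nor position was tested as a source of the difference.

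RAD21 was in all 6 lists at 5 genes (6.49%, where 31.8% of all genes and 13.3% of genes of like length were): RPS24, RPL10A, RPS26, RPL31 and RPL39L. RPL39L, a paralogue of RPL39 known for its expression in testis, was the only one of the 4 paralogues among them. RPS24 had folds, in the order DMSO, 4 h and 24 h, of 35.5, 16.1 and 15.7 in A2 and of 43.4, 44.9 and 18.5 in D7. RPL10A had percentiles, in the same order, of 84.3, 52.8 and 63.1 in A2 and of 89.6, 72.4 and 71.8 in D7. RPS26 had percentiles of 65.1, 26.0 and 39.8 in A2 and of 82.8, 70.5 and 52.7 in D7. Folds and ranks from lists of different depths and lengths do not show a change in occupancy. RPL39L had percentiles of 45.4, 32.2 and 56.6 in A2 and 46.9, 58.2 and 64.6 in D7.

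RPL31, a protein near the exit of the nascent-chain tunnel, held both kinds of site. Its RAD21 peak inside the gene lay on CTCF and was in all 6 lists, with percentiles of 52.9, 12.2 and 15.4 in A2 and 64.6, 41.8 and 10.6 in D7. A second peak lay 35 bp past the start in A2 in DMSO (fold 6.05, percentile 20.9) and 70 bp past it in D7 in DMSO (fold 2.92, percentile 2.43), over the TOP start printed above and on no CTCF peak. That peak was in none of the 4 dTAGV-1 lists. PDS5A had a peak at both sites, of fold 4.13 at the start and 4.58 inside the gene.

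RPL21 and RPS28 had RAD21 in both DMSO lists and in no dTAGV-1 list (2.60%, where 2.06% of all genes did). RPS28 had a fold of 8.98 in A2 and 6.97 in D7, with summits 163 and 158 bp before the start and a CTCF peak beneath (fold 12.4, percentile 44.9), and its window is shared with NDUFA7. RPL21 had a fold of 5.05 in A2 and 4.03 in D7, with summits 180 and 30 bp before the start and no CTCF peak. RPL21 was also the one gene with RAD21 in D7 in DMSO and no PDS5A.

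RAD21 peaks off CTCF were few. In A2 in DMSO there were 5, at RPL31, RPL30, RPS13, RPL21 and RPL28, and none was retained at 4 h or at 24 h, where other genes retained 3.30% and 17.6% of such peaks. In D7 in DMSO there were 7, the same 5 genes with RPL12 and RPL23, of which 4 were retained at 4 h and 1 at 24 h, that of RPL12, where other genes retained 51.3% and 25.0%. With 5 to 7 peaks the intervals reach 43.4% in A2 and span 25.0% to 84.2% in D7 at 4 h.

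RAD21 was in both DMSO lists at 25 of the 77 genes (32.5%, where 50.1% of all genes were), and in none of the 6 lists at 35 (45.5%, where 33.8% were). Genes of like length gave 29.5% in both DMSO lists and 54.5% in none of the 6. Between 4 h and 24 h in A2, RAD21 was listed again at 6 genes, among them RPL26, RPL27A, RPL3, RPL38 and RPS27L (7.79%, where 6.06% of all genes changed this way). No gene of the 77 that lacked RAD21 in DMSO had it at 4 h in A2, at 24 h in A2 or at 24 h in D7, where 0.282%, 0.847% and 1.78% of all genes did. Each count of 0 of 77 has an upper limit of 4.75%.

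STAG1 was found without STAG2 at 19 genes (24.7%, where 19.6% of all genes were), with STAG2 at 5 (6.49%, where 29.1% were), and STAG2 without STAG1 at 2 (2.60%, where 2.97% were). Genes of like length gave 20.1%, 9.68% and 0.578%. The leading genes with STAG1 alone were RPL10A (fold 34.1, percentile 85.7), RPL3 (11.1, 52.6), RPL27A (10.8, 51.3) and RPL7 (8.10, 40.2). The 5 genes with both were RPL27, RPL31, RPS19, RPS24 and RPS26. The 2 with STAG2 alone were RPS29 (fold 11.1, percentile 51.9), in which the summit lay 12141 bp past the start, and RPS3 (6.02, 21.3), a protein of the entry channel for messages, 8572 bp past the start. RPS3 had RAD21 at that site in both DMSO lists, and RPS29 had a weak RAD21 peak there in A2 only, of fold 3.22. Of the 30 RAD21 peaks in D7 in DMSO, 24 (80.0%) overlapped STAG1 against 67.5% at other genes, a difference whose interval includes 0. For STAG2 it was 6 of the 30 against 42.8%, a difference of −22.8 points (−33.4 to −5.52). Neither overlap was matched for gene length or peak position. With both lists cut to the length of the STAG2 list, 16 genes had STAG1 and 7 STAG2. Shares of other genes were not computed at that length. In the full lists STAG1 was more frequent than STAG2 at all genes too (48.8% and 32.1%), as at genes of like length (29.8% and 10.3%).

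PDS5A reached ribosomal protein genes where RAD21 was not listed. Of the 80 PDS5A peaks at the 77 genes, 28 (35.0%) overlapped a D7 DMSO RAD21 peak against 71.1% at other genes, a difference of −36.1 points (−45.7 to −25.2). For CTCF the shares were 52.5% and 72.2%. There were 32 peaks (40.0%, 30.0 to 51.0) that overlapped none of the CTCF, STAG1, STAG2 and DMSO RAD21 lists, against 18.9% at other genes. By position, within 1 kb of a start 20 of 61 PDS5A peaks (32.8%) overlapped RAD21 against 70.0% at other genes, and farther away 8 of 19 (42.1%) against 71.8%. These shares of peaks were not matched for gene length or peak strength, and no source of the difference was tested. Counted by gene, PDS5A was present without RAD21 in D7 in DMSO at 30 of the 77 (39.0%, where 9.92% of all genes and 12.5% of genes of like length were). PDS5A was the only one of the 12 lists with a peak at 10 genes (13.0%, where 2.77% of all genes were), among them RPL17, RPL41, RPL8, RPLP1, RPS12, RPS15A, RPS16, RPS7 and RPS9.

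Several of these PDS5A peaks ranked high in their list. RPS6, the protein that S6 kinase phosphorylates below mTOR, had a fold of 40.2 (89.3) with the summit 33 bp before the TOP start printed above. RPL17 had a fold of 28.8 (84.5) with the summit 8 bp past its start, which it shares with the readthrough gene RPL17-C18orf32. RPS15 had a fold of 22.1 (79.7) with the summit 30 bp before its start. RPS19, the protein most often altered in Diamond-Blackfan anaemia, had 5 PDS5A peaks. The one 37 bp before its start had a fold of 86.0 (97.2) and no DMSO RAD21 peak beneath, and the one 392 bp past the end of the gene had a fold of 35.4 (87.6) over RAD21, CTCF, STAG1 and STAG2. RPL12, at the base of the stalk, had a PDS5A fold of 69.3 (95.5) 41 bp before its start, over a D7 RAD21 peak of fold 3.04 (percentile 3.24), and was chosen after its values were seen. Over all 80 peaks, the 52 without RAD21 had a median percentile of 33.9 and the 28 with RAD21 57.1, and at other genes the medians were 19.1 and 59.0.

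PDS5A summits gathered at the start sites. Among the genes with a listed start, the median distance of a PDS5A summit from the nearest start was 156 bp at ribosomal protein genes and 591.5 bp at genes of like length. Of these summits, 37 of 64 (57.8%) lay within 250 bp at ribosomal protein genes and 37.7% at genes of like length. CTCF summits had median distances of 608.5 and 881 bp, and D7 DMSO RAD21 summits 319.5 and 640 bp. A PDS5A summit lay in the window from 250 bases before to 50 bases past the start in 18 of 43 ribosomal protein genes with a TOP start (41.9%, 28.4 to 56.7) and in 9 of 17 without one (52.9%, 31.0 to 73.8). Among other genes the shares were 22.1% with a TOP start and 16.9% without. The median G+C content of the window was 59.7% at ribosomal protein genes and 62.5% at others.

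**Figure D3:**
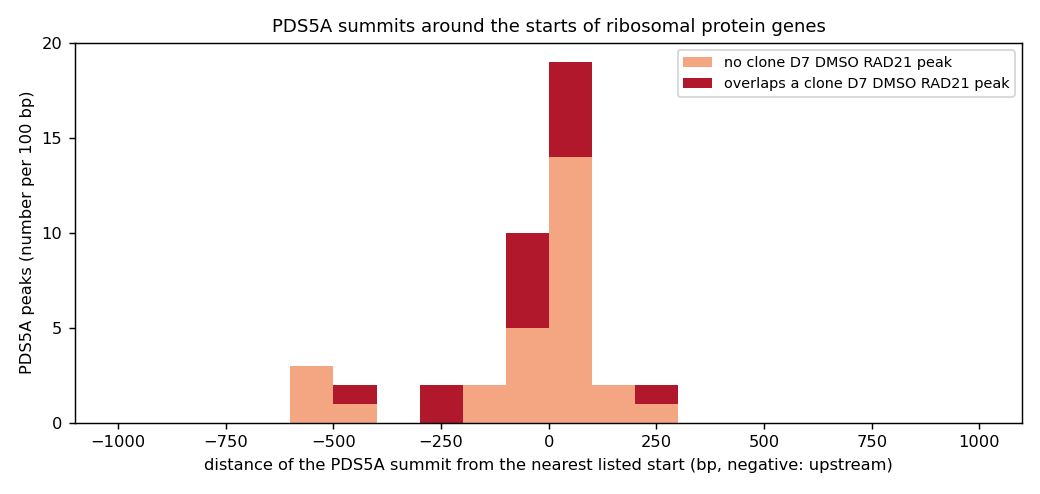
Number of PDS5A peaks per 100 bp (y axis) by distance of the summit from the nearest listed start in bp (x axis, negative upstream) at ribosomal protein genes, stacked by overlap with a clone D7 DMSO RAD21 peak. Of the 42 peaks within 1000 bp, 29 lie within 100 bp of a start and 28 overlap no RAD21 peak.

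The same view from CTCF and RAD21 gave high overlap with PDS5A. Of the 60 CTCF peaks at the 77 genes, 42 (70.0%) overlapped PDS5A against 38.4% at other genes, a difference of 31.6 points (19.1 to 41.7). Of the 30 D7 DMSO RAD21 peaks, 28 (93.3%) did against 58.8%, a difference of 34.5 points (19.8 to 39.4). The RAD21 peaks that did not were those of RPL21 and RPL30. Neither overlap was matched for gene length or peak position. Among genes with a listed start, 55.8% of CTCF summits at ribosomal protein genes lay within 1 kb of a start. At other genes 20.7% did, and at genes of like length 53.4%. For D7 DMSO RAD21 these shares were 62.5%, 29.8% and 62.5%.

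Other gene groups were counted the same way, where 56.9% of all genes had PDS5A. PDS5A was at 25 of 28 highly transcribed housekeeping genes (89.3%), such as GAPDH and ACTB, at 14 of 17 translation factors and other genes with TOP messages (82.4%), at 22 of 29 ribosome biogenesis factors (75.9%) and at 45 of 77 mitochondrial ribosomal protein genes (58.4%). It was at 4 of the 7 ribosomal protein genes on the X chromosome or with another name (57.1%), so this list and the mitochondrial one were near the share of all genes. The housekeeping list had a median length of 4011 bp, the TOP list 14516 bp, the biogenesis list 16265 bp and the mitochondrial list 8618 bp. In the order DMSO, 4 h and 24 h, RAD21 in A2 was at 16, 2 and 2 of the 28 housekeeping genes, 11, 3 and 6 of the 17 TOP genes, 18, 9 and 12 of the 29 biogenesis genes and 32, 12 and 16 of the 77 mitochondrial ribosomal protein genes, with 54.9%, 36.1% and 39.2% of all genes. In D7 it was at 20, 15 and 7 housekeeping genes, 10, 10 and 8 TOP genes, 19, 15 and 10 biogenesis genes and 39, 36 and 20 mitochondrial ribosomal protein genes, with 55.4%, 57.6% and 43.8% of all genes. PDS5A without RAD21 in D7 in DMSO was not confined to the 77 genes. It was also found at the housekeeping genes ACTG1, ALDOA, CFL1, HNRNPA2B1, HSP90AB1 and HSPA8 and at the TOP genes BTF3, EEF1B2, EEF1D, NACA and TPT1. The biogenesis genes GNL3, NCL, NHP2, NOLC1, NOP56, NPM1 and TSR1, and RPL10, RPL39 and RPS4X on the X chromosome, had it too. The other genes with PDS5A in these lists, such as GAPDH, ACTB and EEF2, had RAD21 in D7 in DMSO as well. The ribosomal protein genes were not set apart from these lists by a test.

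Genes of the large and the small subunit, and genes with and without a snoRNA, were compared in each of the 12 lists, and the interval of the difference left out 0 in 3 of the 24 comparisons, with no adjustment for their number. STAG1 was at 17 of 43 large-subunit genes (39.5%) and 5 of 30 small-subunit genes (16.7%), a difference of 22.9 points (1.44 to 40.4). Genes that hold a snoRNA had RAD21 more often in both DMSO lists. In A2 RAD21 was at 15 of 27 of them (55.6%) and 16 of 50 that hold none (32.0%), a difference of 23.6 points (0.675 to 43.8). In D7 it was at 14 of 27 (51.9%) and 14 of 50 (28.0%), a difference of 23.9 points (1.36 to 44.2). For the other comparisons the interval included 0. In D7 in DMSO RAD21 was at 19 of 43 large-subunit genes (44.2%, 30.4 to 58.9) and 7 of 30 small-subunit genes (23.3%, 11.8 to 40.9), and PDS5A was at 31 (72.1%, 57.3 to 83.3) and 23 (76.7%, 59.1 to 88.2). PDS5A was at 23 of 27 genes that hold a snoRNA (85.2%, 67.5 to 94.1) and 34 of 50 that hold none (68.0%, 54.2 to 79.2). PDS5A was at 31 of the 43 genes whose window meets no other protein-coding gene (72.1%).

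The genes with the most peaks over the 12 lists were RPL27A, RPL31, RPS19 and RPS24. RPL27A, a large-subunit protein, had 2 RAD21 peaks in both DMSO lists, 379 bp before the start (fold 8.34 in A2) and 6100 bp past it (fold 11.2 in A2), the first shared with TRIM66. At the edge of the window, the farthest summit counted was a CTCF summit 907 bp from RPL9 (fold 10.2), and the closest left out was a CTCF summit 1044 bp from RPL23A (fold 3.68).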

How the data were processed

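The 12 deposited narrowPeak lists were used. The processing notes of the submitters name BWA, Picard, SAMtools, bedtools, deepTools, MACS2 and the builds hg38 and mm10, with no versions. Per the labels' protocols, HA chromatin had an extra protein crosslinker, and the CTCF library came from another kit with a size selection. Names in the files carry q limits of 0.001 for CTCF and 0.01 otherwise. The authors deposited a score, a fold ratio of the summit over local background, and −log10 p and −log10 q values, and these rank or filter peaks only within their list. Inputs (10 libraries) were not used here.

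Genes and starts came from RefSeq tables of GRCh38.p14. Peaks overlapped when they shared 1 bp. Pileups were recovered from fold and p under a Poisson model for peaks with a −log10 p under 250, and were whole (within 0.05) in 11 lists. Python 3.11.15, pandas 2.3.3 and statsmodels 0.14.6 were used, and scripts were tested on simulated data. Members, lists and tests were chosen with earlier results of these data known. Named genes follow a rule: the leading genes by fold for each pattern, up to 6 for RAD21 in each DMSO list and for WAPL, all with RAD21 in both DMSO lists and no dTAGV-1 list or in all 6, up to 4 for STAG1 alone, STAG2 alone, PDS5A without RAD21 and most peaks, and members without peaks. The RPS6, RPS19, RPLP0 and RPL38 stretches were added after seeing values. Others named are examples chosen after seeing values. Some genes that the rule names are not reported here.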

Additional observations from a re-analysis of the deposited data

Results flagged for a closer look

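The number of ribosomal protein genes with a RAD21 peak moved in opposite directions in the 2 clones after 4 h of dTAGV-1. It changed by −26 genes in clone A2, from 31 to 5, and by 7 genes in clone D7, from 28 to 35. Each clone had 1 library per condition, so the contrast between clones A2 and D7 was not tested. Clone A2 was shallower in DMSO than at 4 h and clone D7 was also shallower in DMSO than at 4 h, by background pileup. In D7 the direction turned with a −log10 q of at least 10, with lists of equal length and with equal background pileup. In A2 it did not turn under these settings. With a −log10 q of at least 10 the share of other genes in D7 also went down, from 47.4% to 43.4%.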

How the results depend on the processing

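No paired analysis was possible because the results are counts over peak lists with no test across libraries; treated lists were set against the DMSO list of their own clone, and the clones, of different genotype, are given side by side. With 1 library in each group none could be left out. The difference in share from other genes, in points, changed as follows. With the gene body alone it was −33.7 for CTCF, −33.0 for RAD21 in A2 DMSO, −29.8 in D7 DMSO, −28.8 in D7 at 4 h and 2.24 for PDS5A. Within 1 kb of a start it was 12.7 for CTCF, 36.5 for PDS5A, −4.39 for STAG1, −3.64 for STAG2, and for RAD21 1.5, −5.01 and −5.24 in A2 (DMSO, 4 h, 24 h) and −5.44, 4.26 and −10.4 in D7. With the strongest 2000 peaks it was 3.04 for CTCF, 1.47 for PDS5A, −4.36 for STAG1, −4.30 for STAG2, −3.22 and −3.47 for A2 at 4 h and 24 h, and −4.64 and −3.94 for D7 in DMSO and at 24 h. Against genes of like length it was 12.9 for CTCF, 31.4 for PDS5A, 1.41 for STAG1, −1.16 for STAG2, 7.09, −8.09 and −4.68 for A2, and 1.07, 7.47 and −5.84 for D7. Within 1 kb of a listed start and against genes of like length, a setting chosen after seeing the data, it was 17.2 for CTCF, 36.9 for PDS5A, −0.469 for STAG1, −0.703 for STAG2, 6.56, −3.70 and −2.41 for A2, and −1.17, 12.4 and −4.71 for D7. With the gene body alone only PDS5A, of those given, had an interval that included 0 (−8.58 to 13.3). With the strongest 2000 peaks every interval included 0, for PDS5A −2.23 to 9.30, and RAD21, STAG1 and STAG2 had no such peak at the 77 genes. Within 1 kb of a start the intervals of STAG1, STAG2 and RAD21 included 0, except D7 at 24 h (−15.1 to −1.88). Against genes of like length those of CTCF, PDS5A and A2 at 4 h left out 0. In the setting chosen after seeing the data those of CTCF, PDS5A and D7 at 4 h did. With a −log10 q of at least 10, D7 at 4 h was at −26.5. The cause of the remaining changes was not tested.

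The ratio of treated to DMSO counts in A2 at 4 h was 0.250 with a −log10 q of at least 10 and 0.357 with lists of equal length, and in A2 at 24 h 0.571 with equal length. In D7 at 4 h it was 0.591, 0.765 and, with equal background pileup, 0.889, each below 1 where the lists as deposited gave 1.25. Retention was 52.2% in D7 at 4 h with a −log10 q of at least 10, and 35.7% and 57.1% in A2 at 4 h and 24 h with equal length. CTCF overlap with the upper 50% of CTCF peaks was 67.6% in A2 DMSO, 56.7% in D7 DMSO and 55.3% in D7 at 4 h, and with summits within 200 bp 55.3% in D7 at 4 h. With a −log10 q of at least 10 it was 91.3% in D7 DMSO and 100% in A2 DMSO, A2 at 24 h, D7 at 4 h and D7 at 24 h.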
